A study of Mus musculus with 12 samples.

Results

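The chemokines and chemokine receptors of the mouse fetal liver were taken as every row of the deposited expression table whose gene symbol begins with Ccl, Ccr, Cxcl, Cxcr, Xcl, Xcr, Cx3cl or Cx3cr followed by a digit. This rule found 55 genes of 30743 rows, 35 of them ligands and 20 of them receptors. Gene expression was measured by RNA-seq of polyA-selected RNA in whole livers of C57BL/6J male fetuses at 15 ± 0.5 days post coitum (dpc). The dams were C57BL/6 CD45.2 females on a high-fat diet (HFD) with 60 kcal% fat in 6 samples, or on a control diet with 13.5 kcal% fat in the other 6, for 12 to 14 weeks. The labels name no transgene and no engineered deletion. The levels below are the authors' average over all 12 libraries of both diets, so a gene has 1 value with no spread between livers, and the diets were not compared here.

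Chemokines are small secreted proteins that bind G protein-coupled receptors and direct the movement of leukocytes and of blood-forming cells. They are named for the spacing of the first cysteines of the mature protein, and a receptor is named for the class of ligand it binds. In the fetal liver, which is the main blood-forming organ at this stage, Cxcl12 made by stromal cells is known to draw and hold stem and progenitor cells that carry its receptor Cxcr4. Ligands of Ccr2, Cxcr2 and Cx3cr1 are known for the traffic of monocytes, neutrophils and tissue macrophages.

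The cysteine motif that gives each class its name is shown for the ligand with the highest level in its class, and for Ccl6 as the chromosomal neighbour of Ccl9. Each line is a stretch of the GENCODE coding sequence on the sense strand, 5′ to 3′, with the codons from the first to the last cysteine of the motif in capitals and 30 bases on each side in lower case.
Cxcl12 (CXC): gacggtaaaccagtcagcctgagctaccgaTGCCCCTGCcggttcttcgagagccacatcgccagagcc
Ccl9 (CC): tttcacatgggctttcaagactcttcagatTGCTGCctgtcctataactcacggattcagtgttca
Ccl6 (CC): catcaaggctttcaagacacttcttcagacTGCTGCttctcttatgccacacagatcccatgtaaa
Cx3cl1 (CX3C): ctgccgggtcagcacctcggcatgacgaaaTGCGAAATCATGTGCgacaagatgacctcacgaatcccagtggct
Xcl1 (C): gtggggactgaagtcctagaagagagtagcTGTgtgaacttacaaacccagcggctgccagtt
In Ccl9 and Ccl6 the cysteine codons are adjacent, in Cxcl12 a single codon separates them, in Cx3cl1 they enclose 3 codons, and Xcl1 has a lone cysteine. Reading the first cysteines after residue 20, to pass over the signal peptide, gave the class in the gene's name for 30 of 35 ligands. By class, these were 16 of 20 CC, 12 of 13 CXC, 1 of 1 CX3C and 1 of 1 C ligands. The 5 ligands that this simple reading missed were Ccl20, Ccl25, Ccl26, Ccl27a and Cxcl15. Any spacing outside the CC, CXC and CX3C classes was read as C. The match of Xcl1 is therefore no detected motif, and Ccl20, Ccl26, Ccl27a and Cxcl15 were read as C in the same way.

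The level of a row is given in CPM (reads of a gene relative to all reads of a library, scaled to counts per 1e6), and the reads behind it are those estimated over the 12 libraries together, where 1 CPM is worth about 158 reads. Reads were present for 49 of 55 members (89.1%), against 63.9% of all rows. Levels above 1 CPM were reached by 14 of 55 members (25.5%), against 31.9% of all rows. Another 35 members lay between 1 read and 1 CPM, 14 of them with fewer than 10 reads. The median member with reads had 0.355 CPM, against 0.994 CPM for all rows with reads, and stood at percentile 38.3 of those rows. Over every row, with or without reads, the median was 0.312 CPM for members and 0.0697 CPM for all rows. The family was thus often present in the table. Its members with reads lay low only beside other rows with reads, with a few members far above the rest. Intervals given with a level are exact 95% Poisson intervals of the summed reads. They cover counting error only and hold nothing of the spread between livers.

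A limit on these levels showed in rows of genes that nearly every cell uses. The row of Actb stood at 2581 CPM and that of Sdha at 675 CPM, but Gapdh stood at 5.05 CPM, Ppia had 2 reads and Cmtm6 was listed at 0. Among 73 rows of ribosomal proteins the lowest was at 0, the median at 16.8 CPM and the highest at 2440 CPM, and 11 rows lay under 1 CPM. These rows were looked up after the levels had been seen. A low row, or a row listed at 0, is therefore no measure that the gene was little used, an order of levels is an order of rows, and the reason for the low rows was not tested. Because the tissue is a whole organ, fewer cells of a type and less RNA per cell cannot be told apart.

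**Figure D1:**
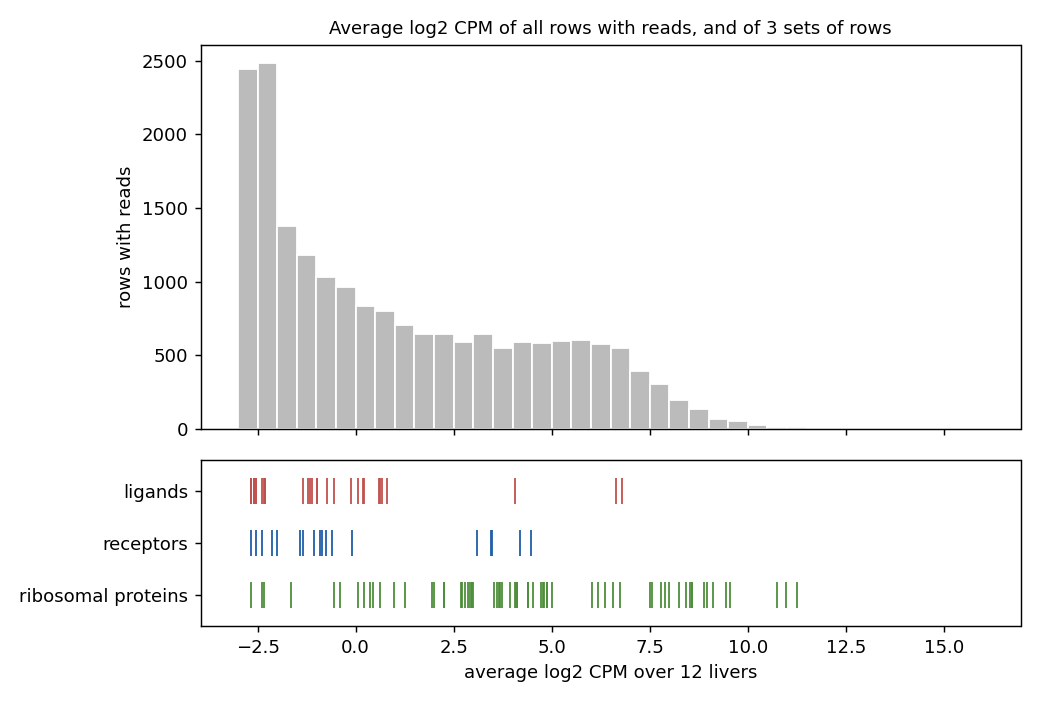
Distribution of the average log2 CPM over all rows with reads (bars, number of rows in bins of 0.5) above the values of the ligands (red), receptors (blue) and ribosomal-protein rows (green) with reads, 1 tick per row. Most ligands and receptors sit at the low end, 3 ligands and 5 receptors stand apart at higher levels, and the ribosomal-protein rows run over nearly the whole range.

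Ligand reads came from few genes. Cxcl12 (chr6:117168535-117181367, GRCm38), the ligand of Cxcr4, had the highest level of any member at 111 CPM, from 17433 reads (interval 109 to 112 CPM), and stood at percentile 92.5 of all rows with reads. Ccl9 (chr11:83572919-83578636), a CC chemokine of myeloid cells that binds Ccr1, followed at 99.6 CPM from 15690 reads (98.0 to 101 CPM). Their ratio was 1.11 (1.09 to 1.14), so that Cxcl12 exceeded Ccl9 by more than counting error. Ccl6 (chr11:83587882-83593087), another Ccr1 ligand made by myeloid cells, followed these at 16.7 CPM from 2624 reads (16.0 to 17.3 CPM), and Ccl9 exceeded it 5.98-fold (5.74 to 6.23). These 3 genes held 94.8% of the 239 CPM summed over the 35 ligands.

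The order changed once gene length was taken into account. Per kilobase of exon Ccl9 led at 32.7 CPM per kb, with Cxcl12 at 13.5 and Ccl6 at 9.28 CPM per kb. The exons of Cxcl12 cover 8176 bases and those of Ccl9 cover 3045 bases. On this scale Ccl9 held 52.1% of the summed ligand level, Cxcl12 held 21.6% and Ccl6 held 14.8%. The other ligands found by the rule thus shared a small remainder on either scale. The platelet chemokines Ppbp at 251 CPM and Pf4 at 150 CPM are not among them, as their names do not match the rule.

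After Ccl6 the ligand levels dropped 10.5-fold (9.22 to 12.0) to Cxcl1. Cxcl1 (chr5:90891241-90893115), which attracts neutrophils through Cxcr2, had 1.59 CPM from 250 reads (1.40 to 1.80 CPM). Ccl22 (chr8:94745590-94751699), a ligand of Ccr4 known from dendritic cells and macrophages, had 1.45 CPM from 229 reads. Cxcl5 (chr5:90759360-90761624), also a Cxcr2 ligand, had 1.39 CPM from 220 reads. Cxcl1 and Ccl22 did not differ beyond counting error, with a ratio of 1.09 (0.909 to 1.31), nor did Ccl22 and Cxcl5, with a ratio of 1.04 (0.861 to 1.26). Cx3cl1 (chr8:94772009-94782427), the membrane-bound ligand of Cx3cr1 also named fractalkine, had 1.36 CPM from 214 reads, within counting error of Cxcl5. Ccl24 (chr5:135569937-135573049), an eosinophil attractant that binds Ccr3, lay just above the threshold at 1.00 CPM from 158 reads.

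Just under 1 CPM were 2 ligands and a receptor. Ccl2, the main monocyte attractant, had 0.991 CPM from 156 reads, Ccl25, known for guiding thymocyte progenitors through Ccr9, had 0.883 CPM from 139 reads, and Cxcr3, the receptor of interferon-induced chemokines, had 0.779 CPM from 123 reads. Ccl24 and Ccl2 lay on different sides of the threshold with a ratio of 1.01 (0.807 to 1.27). The interval of Ccl24 reached from 0.852 to 1.17 CPM, so its side of the threshold is not fixed by these reads. The ligands listed at 0 were Ccl1, Ccl4, Ccl26, Ccl27a and Cxcl2.

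**Figure D2:**
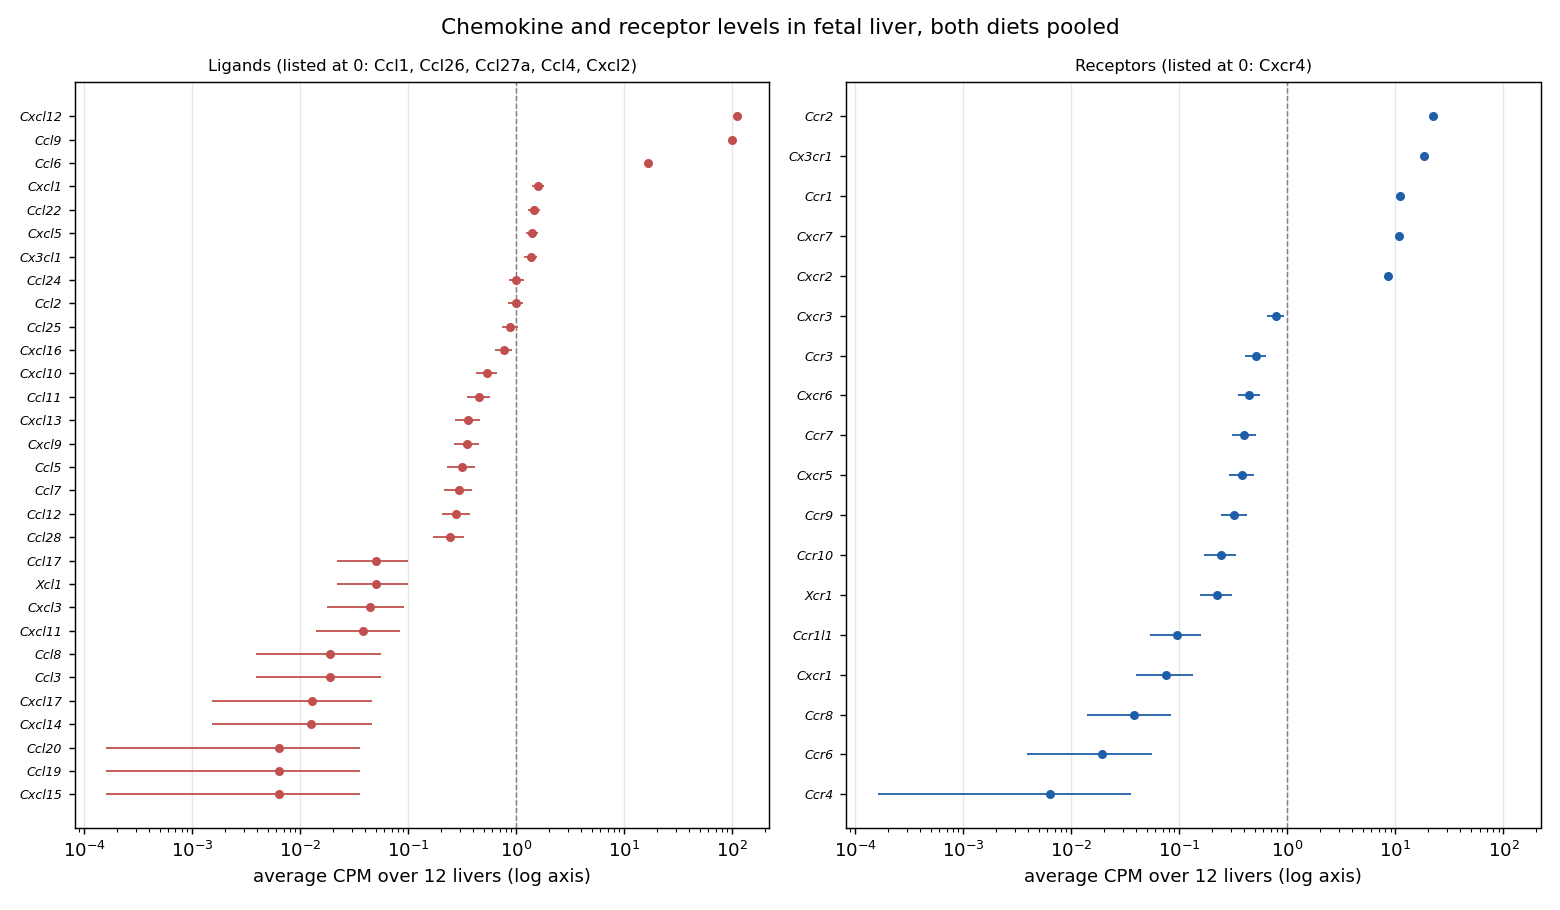
Average CPM over 12 livers of both diets for ligands (left, red) and receptors (right, blue) with reads, on a log axis, with exact 95% Poisson intervals and a dashed line at 1 CPM. Cxcl12 and Ccl9 lie near 100 CPM and Ccl6 at 16.7 CPM, 5 receptors lie between 8.45 and 22.1 CPM, and no member lies between 1.59 and 8.45 CPM.

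The receptor reads were spread more evenly, and 6 of 20 receptors exceeded 1 CPM. Ccr2 (chr9:124101950-124113557), the receptor of monocytes for Ccl2, Ccl7 and Ccl12, had the highest receptor level at 22.1 CPM from 3476 reads (21.3 to 22.8 CPM). Cx3cr1 (chr9:119901616-120069879), a receptor of monocytes and tissue macrophages, had 18.2 CPM from 2867 reads (17.5 to 18.9 CPM). Ccr2 exceeded it 1.21-fold (1.15 to 1.27). Ccr1 (chr9:123962124-123968692), which binds Ccl3, Ccl5, Ccl6 and Ccl9, had 11.0 CPM from 1729 reads. Cxcr7 (chr1:90203980-90216751, now named Ackr3), an atypical receptor that takes up Cxcl12 without G protein signalling, had 10.8 CPM from 1708 reads. Ccr1 did not differ from Cxcr7 beyond counting error, with a ratio of 1.01 (0.946 to 1.08). Cxcr2 (chr1:74153989-74161246), the neutrophil receptor for Cxcl1 and Cxcl5, had 8.45 CPM from 1332 reads (8.01 to 8.92 CPM).

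Of the 84.2 CPM summed over the 20 receptors, Ccr2 held 26.2% and Cx3cr1 held 21.6%. Below Cxcr2 the levels dropped 10.9-fold (9.00 to 13.1) to Cxcr3. Per kilobase of exon Cx3cr1 led at 4.04 CPM per kb and held 20.3% of the summed receptor level. It was followed by Ccr1 at 3.87, Ccr2 at 3.26, Cxcr7 at 3.24 and Cxcr2 at 2.77 CPM per kb. No counting interval was computed on this scale, so the order of close values, such as Cx3cr1 and Ccr1, is not settled. The largest receptor share was therefore 26.2% in CPM and 20.3% per kilobase. Among ligands, Cxcl12 held 46.2% and Ccl9 41.6% in CPM. Per kilobase Ccl9 held 52.1%, but Cxcl12 held 21.6%, close to the share of Cx3cr1 among receptors. The atypical receptor Darc at 98.7 CPM, whose name the rule does not match, is not in these sums. Over all members the summed ligand level per kilobase was 3.15 times the summed receptor level. This ratio was 1.89 without Ccl9 and Cx3cr1, and 5.45 with the chemokines and receptors named otherwise. Rows under 1 CPM included receptors known from lymphocytes, with Cxcr3 at 0.779 CPM, Cxcr6 at 0.443 CPM, Ccr7 at 0.399 CPM, Cxcr5 at 0.379 CPM and Ccr9 at 0.323 CPM. These rows are no measure of lymphocytes in the liver. Cxcr4 was the only receptor listed at 0. Among markers of progenitor cells, which are known to carry Cxcr4, the row of Ly6a was also listed at 0. Kit, the stem cell factor receptor, had 1 read and Mecom had 10 reads, while Cd34 had 0.988 CPM and Slamf1 had 5.97 CPM. The study counted stem and progenitor cells in other fetal livers by flow cytometry. These low rows are therefore no measure that such cells were lacking, and the reason for them was not tested.

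Ligands were next set beside their known receptors in 34 pairs, of which 33 had a row for each partner. Both partners exceeded 1 CPM in 5 pairs. In the Ccr1 pairs the ligand was the higher row, with Ccl9 at 99.6 CPM and Ccl6 at 16.7 CPM against 11.0 CPM for Ccr1. In the other 3 pairs the receptor was the higher row, with Cxcl1 at 1.59 CPM and Cxcl5 at 1.39 CPM against 8.45 CPM for Cxcr2, and Cx3cl1 at 1.36 CPM against 18.2 CPM for Cx3cr1. The ligand alone exceeded 1 CPM in 3 pairs. In these, Cxcl12 at 111 CPM faced a Cxcr4 row listed at 0, Ccl22 at 1.45 CPM faced a single read of Ccr4, and Ccl24 at 1.00 CPM faced Ccr3 at 0.508 CPM. Cxcl12 also binds Cxcr7, which stood at 10.8 CPM.

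The receptor alone exceeded 1 CPM in 10 pairs. Ccr2 at 22.1 CPM stood against Ccl2 at 0.991 CPM, Ccl7 at 0.293 CPM and Ccl12 at 0.278 CPM. Ccr1 at 11.0 CPM stood against Ccl5 at 0.312 CPM and Ccl3 with 3 reads. Cxcr2 at 8.45 CPM stood against Cxcl3 with 7 reads and Cxcl2, listed at 0. Coding sequences of Cxcl2 and Cxcl3 were 89.7% identical, the closest of 595 ligand pairs. Whether reads were split or lost between their rows was not tested, and both levels are uncertain.

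Neither partner exceeded 1 CPM in 15 pairs. The interferon-induced Cxcr3 ligands stood at 0.532 CPM for Cxcl10, 0.351 CPM for Cxcl9 and 6 reads for Cxcl11, against 0.779 CPM for Cxcr3. Cxcl16 at 0.763 CPM stood against Cxcr6 at 0.443 CPM, and Cxcl13 at 0.355 CPM against Cxcr5 at 0.379 CPM. The intestinal and thymic ligand Ccl25 at 0.883 CPM stood against Ccr9 at 0.323 CPM. Ccl11, an eosinophil attractant, had 0.453 CPM against 0.508 CPM for Ccr3. Ccl28 and its receptor Ccr10 had 38 reads each, and Ccl27a, the other Ccr10 ligand, was listed at 0. The lymph node ligand Ccl19 had 1 read against 63 reads of Ccr7. Ccl20 and Ccr6 had 1 and 3 reads, Ccl17 and Ccr4 had 8 and 1 reads, and Xcl1 and Xcr1 had 8 and 35 reads. Ccr8 had 6 reads, against 3 reads of Ccl8 and a Ccl1 row listed at 0.

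**Figure D3:**
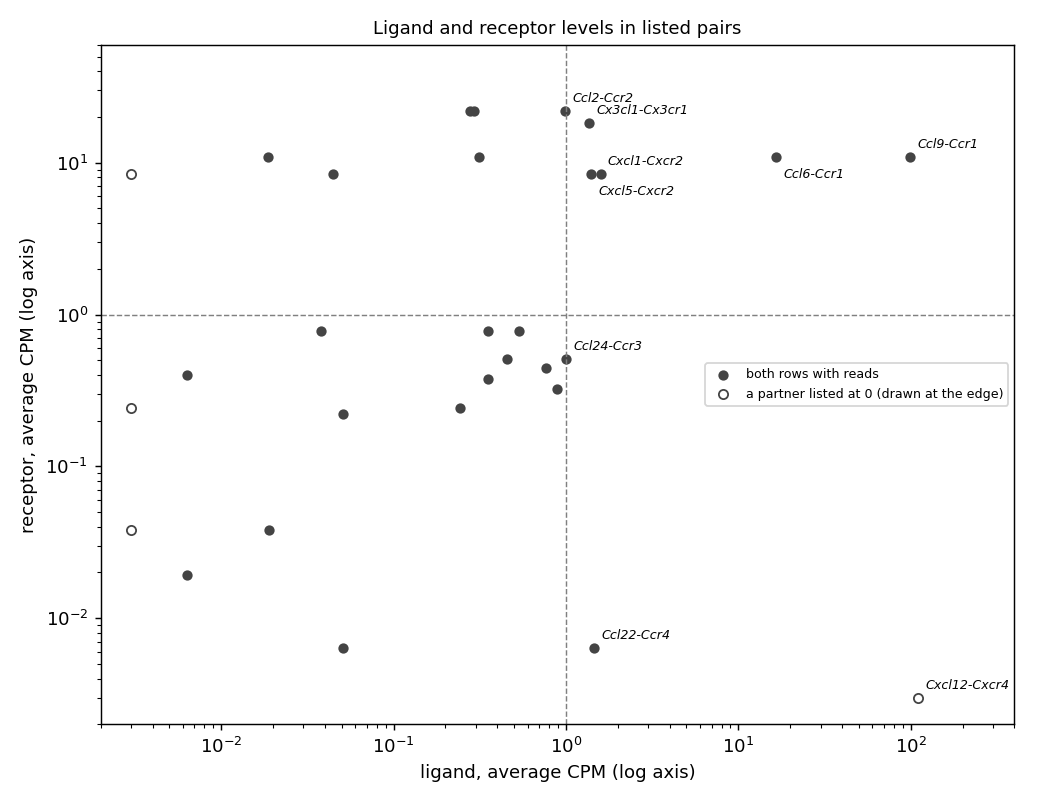
Average CPM of the ligand (horizontal, log axis) against that of its receptor (vertical, log axis) in the pairs described, with dashed lines at 1 CPM and open points at the axis edge for a partner listed at 0. The 5 pairs at the upper right have both partners above 1 CPM, and the Cxcl12 and Cxcr4 pair lies in the far lower right corner.

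Chemokine genes lie in clusters on the chromosomes, and levels within a cluster were unequal. With neighbours closer than 200 kb joined, 30 of 55 members fell into 6 clusters of at least 3 members, and 9 of these 30 exceeded 1 CPM. In the cluster at chr11:83525778-83664683, Ccl9 held 85.4% and Ccl6 held 14.3% of 117 CPM, while Ccl5 had 0.312 CPM, Ccl3 had 3 reads and Ccl4 was listed at 0. The coding sequences of Ccl6 and Ccl9 were 66.1% identical. The cluster at chr11:82035571-82305690, with Ccl2, Ccl7, Ccl11, Ccl12, Ccl8 and Ccl1, summed to 2.03 CPM, with no member above 1 CPM. Both clusters lie on chromosome 11 and hold CC ligands only.

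The members at chr5:90759360-90905938 summed to 3.03 CPM, of which nearly all came from the neutrophil attractants Cxcl5 and Cxcl1, with Cxcl3 at 7 reads, Cxcl15 at 1 read and Cxcl2 listed at 0. The platelet chemokines Ppbp (chr5:90768518-90770063) at 251 CPM and Pf4 (chr5:90772435-90773383) at 150 CPM, whose names the rule does not match, lie between Cxcl5 and Cxcl3 and are not in this sum. Cxcl1 was 75.7% identical in coding sequence to Cxcl2. The Cxcr3 ligands at chr5:92321347-92365485 summed to 0.921 CPM. At chr8:94745590-94812036, Ccl22 and Cx3cl1 were of like level while Ccl17, which shares the receptor Ccr4 with Ccl22, had 8 reads. In the receptor cluster on chromosome 9, the myeloid receptors Ccr1 and Ccr2 exceeded 1 CPM, and Ccr9, Cxcr6, Xcr1, Ccr1l1 and Ccr3 did not.

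**Figure D4:**
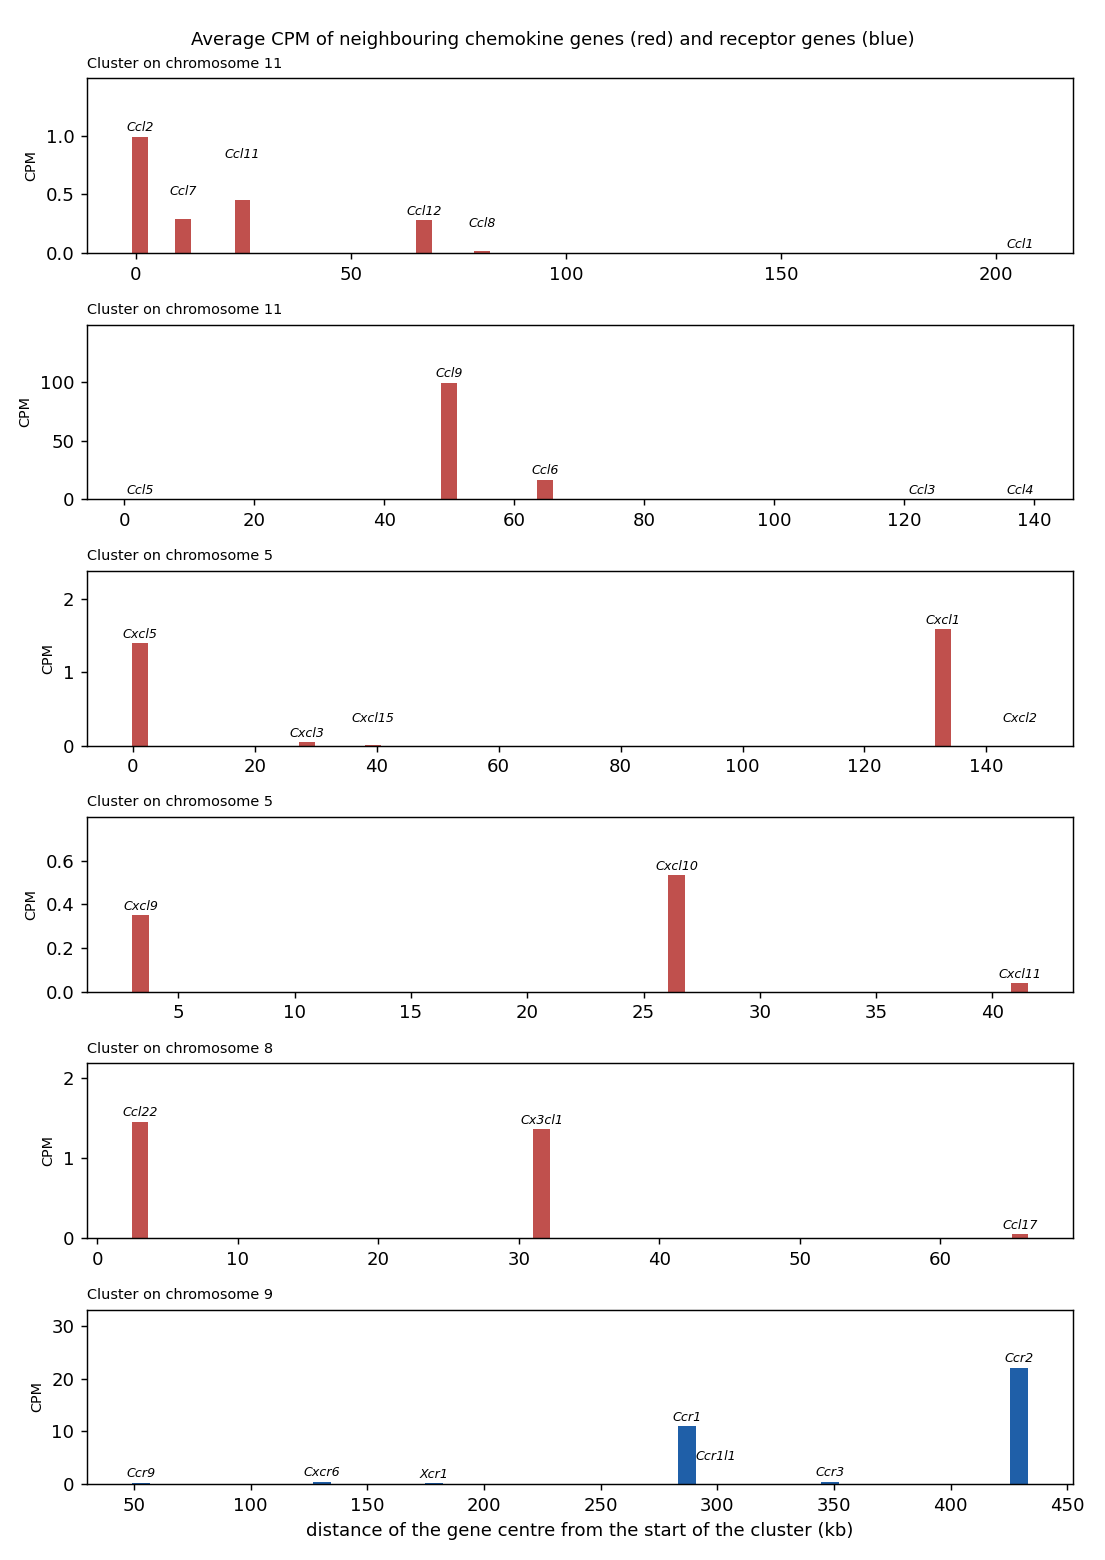
Average CPM (vertical, linear axis that differs between panels) of ligands (red) and receptors (blue) by distance of the gene's centre from the start of its cluster in kb, 1 panel for each of 6 clusters. Ccl9 and Ccl6 make up nearly all of the second cluster, and Ccr2 and Ccr1 have the highest bars in the last.

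Chemokines and receptors with other names were also looked up. Of 11 symbols, older and newer ones counted separately, 7 had rows and 5 exceeded 1 CPM. Of the 7, Cxcr7 is also a member by the rule, and of the other 6 rows 4 exceeded 1 CPM. The platelet chemokines Ppbp at 251 CPM and Pf4 at 150 CPM had higher rows than Cxcl12. Darc (now Ackr1), an atypical receptor of red cells and venules, had 98.7 CPM, more than any receptor found by the rule. Ccrl2, which binds chemerin, had 4.77 CPM, while Ccbp2 (now Ackr2), a decoy for inflammatory CC ligands, had 10 reads and Ccrl1 (now Ackr4), a decoy for Ccl19 and Ccl25, had 9 reads.

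A list of genes of receptor signalling and chemotaxis, which also holds the peptidase Dpp4, had rows for 25 of 26 symbols. Older and newer symbols were counted separately (Adrbk1, now Grk2). Of these rows 15 exceeded 1 CPM, against 31.9% of all rows. The inhibitory G protein subunits through which chemokine receptors signal stood at 365 CPM for Gnai3, 156 CPM for Gnai2 and 10.5 CPM for Gnai1, and the beta subunit Gnb2 had 429 CPM. The small GTPase of blood cells Rac2 had 251 CPM and its activator Dock2 had 43.2 CPM. Dpp4, a peptidase that inactivates Cxcl12, had 13.5 CPM. The other 10 rows did not exceed 1 CPM, also where a close relative was high. Rac1 had 0.610 CPM, Arrb1 0.898 CPM and Plcb2 0.713 CPM. Gnb1 and Rgs1 had 1 read each, Pik3cg had 6, Grk6 had 9 and Plcb3 had 29 reads. Gng2 and the arrestin Arrb2 were listed at 0.

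Beside the liver label, 13 lists of cell type markers were looked up. In these, 42 of 72 rows exceeded 1 CPM, against 31.9% of all rows, and 12 were listed at 0. Alb at 63314 CPM and Afp at 54525 CPM were high, as hepatoblasts make them, while the row of Hnf4a was listed at 0. The granulocyte list had 8 of 9 rows above 1 CPM, with Mpo at 758 CPM and S100a9 with 2 reads. The macrophage list had 4 of 7, with Cd5l at 385 CPM and Marco at 208 CPM. Its low rows were Csf1r at 0.532 CPM, Cd68 with 9 reads and Emr1, listed at 0. The pancreas list had 2 of 6 rows above 1 CPM, with Ctrb1 at 12.4 CPM and Cel at 1.64 CPM. The source of these pancreas reads was not tested. None of 6 rows of T and NK cell markers exceeded 1 CPM, with the highest, Cd4, at 0.519 CPM, and 3 of them were listed at 0. How far each cell type supplied the chemokine reads was not tested.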

How the data were processed

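Per the labels and the study's methods, libraries were made from polyA-selected RNA with the Illumina TruSeq RNA kit v2 and sequenced on an Illumina HiSeq instrument. Tools of the authors named in the submitters' processing notes are cutadapt 1.2.1, Subread 1.3.6-p1 and edgeR, with the mm10 build. The counting step is not given in the sources used here. The authors deposited 1 table with average log2 CPM per gene symbol over all 12 libraries. A second average column was not used, and the other 8 value columns hold the authors' own comparison of the diets (fold changes, p-values and false discovery rates, with common and with tagwise dispersion) and were not used. Without values of single livers no SD, test or diet comparison was made.

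The 11091 rows at the lowest value (-2.71 log2 CPM) were taken as rows without reads. CPM was 2 to the power of the deposited log2 value, less the same at the lowest value. Reads were estimated assuming an average prior count of 2 per library, under which 99.9% of 5453 rows with 1 to 20 reads fell within 0.25 of a whole number. The estimate was also run on simulated data with chosen dispersion and library sizes. These data were made with the same prior count of 2, so they could not test that prior count. The mean normalized library size came to 13129748 reads, so 1 read was worth 0.00635 CPM and a floor of 3 reads 0.0190 CPM. PCR duplicates are not independent molecules, and intervals cover counting error only.

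Positions, exon lengths (union of exons) and coding sequences came from GENCODE M21 (GRCm38, the assembly of mm10). All 55 members matched, 1 of them (Cxcr7) through an older symbol. Ratios of neighbouring levels carry exact 95% intervals from their reads. Identity was computed over aligned coding sequences. Python 3.11.15, pandas 2.3.3, scipy 1.17.1 and Biopython 1.88 were used. Members and lists were chosen with earlier results of these data known. Values were named for members above 1 CPM, for the 3 nearest on each side of 1 CPM and for both partners of each listed pair. Other members named for their place in a cluster or order, and all genes outside the rule, were chosen with values seen. 1 member is counted in the totals but not reported here. The planned printing of protein sequences was replaced by coding stretches.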

Additional observations from a re-analysis of the deposited data

How the results depend on the processing

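No paired analysis was possible because the table holds no values of single livers, and no liver could be left out for the same reason. Of 14 alternatives, 4 left a value within the limit set for it and 10 moved it. The limit was counting error for levels, shares and the ratio, and a fold change for counts of members. For the median percentile it was the SD over members. That alternative dropped Ccl19 alone among members with reads and gave 38.6 in place of 38.3, so it could hardly have passed so wide a limit. Without subtracting the level of rows without reads, the median of members with reads was 0.508 CPM, the share of Ccl9 among ligands per kilobase 48.6% and that of Cx3cr1 among receptors 19.2%. With no correction for length the leading ligand was Cxcl12 with 46.2%, the leading receptor was Ccr2 with 26.2%, and the ratio of summed ligand to summed receptor level was 2.84. That ratio was 3.45 with the length of the longest transcript, 5.45 with the members named otherwise and 1.89 without Ccl9 and Cx3cr1. A threshold of 2 CPM left 9 members above it, 0.5 CPM left 20, and 1 CPM without subtraction left 16. At least 10 reads were found for 35 members. The planned use of the average given with the other dispersion was not run. Depth limits the members with fewer than 10 reads, whose order cannot be read.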
